A study of Mus musculus with 18 samples.

Results

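Pan-neuronal differentiation genes are switched on in nearly every kind of neuron once its progenitor leaves the cell cycle, and 10 of them were followed here in whole mouse embryos: Tubb3, Stmn2, Nefl, Nefm, Snap25, Syt1, Elavl3, Elavl4, Dcx and Gap43. They were chosen by name as the rows of the expression table that carry these symbols, by a rule that uses no measured value, although earlier results of these data were known when the set was proposed, and all 10 were found among its 34244 genes. RNA-seq libraries came from 9 single embryos of the FVB strain taken at E11.5, alive at dissection and obtained by natural mating of heterozygous parents. Of these, 3 were Dnmt3b+/+, 3 were labelled Dnmt3b-/-, from a conventional knockout allele derived from the Dnmt3b 2loxP line, and 3 were Dnmt3b CI/CI, homozygous for a CRISPR knock-in that replaces a proline and the catalytic cysteine and was made to remove catalytic activity, of which some may remain. Both mutant alleles were carried in the germline, and the labels name no further allele or treatment. The study asked what is lost with the Dnmt3b protein and what is lost with its catalytic activity alone.

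At E11.5 the mouse nervous system holds dividing progenitors beside neurons that have just formed in the spinal cord, brainstem and cranial and dorsal root ganglia. A new neuron first builds its tubulin and growth cone machinery, then neurofilaments as its axon lengthens, and later the machinery that releases synaptic vesicles, while RNA-binding proteins of the Elav family stabilise and splice its messages. The genes below follow that order of roles. In RNA from a whole embryo, fewer neurons and less RNA per neuron cannot be told apart.

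The deposited values are FPKM, fragments counted relative to exon length and to the mapped total of the library, so that levels can be compared between genes as well as between embryos. Library totals worked back from the smallest values ran from 38451729 to 49808777 reads. All 90 values of the 10 genes came out as whole reads within 0.05 of a read, from 200 reads for Snap25 in embryo 3 labelled Dnmt3b-/- to 25430 for Tubb3 in Dnmt3b+/+ embryo 2, which gives a counting error of 7.07% at the lowest value if each read is counted as independent. Whether reads or pairs were counted is not given in the sources used here, and with pairs the error would be larger. Dnmt3b itself, summed over all its exons, stood at 2.25, 1.62 and 2.04 FPKM in Dnmt3b+/+ embryos 1, 2 and 3, at 2.45, 3.12 and 3.33 FPKM in those labelled Dnmt3b-/-, against 2.06, 1.98 and 2.32 FPKM in Dnmt3b CI/CI. A sum over the gene does not show which exons are missing, so it does not check the label, and the embryos are called by their labels throughout.

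Differences between genotypes were tested with limma on log2(FPKM + 0.1) over the 19397 genes that reached 0.1 FPKM in at least 3 embryos, with Benjamini-Hochberg adjustment over all of them. All 10 genes passed that filter. Differences are therefore on the log2(FPKM + 0.1) scale, SE is the standard error of that difference, and a gene is said to have changed where its adjusted p was under 0.05.

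In Dnmt3b+/+ embryos Tubb3 was the most abundant of the set, with a mean of 194 ± 70.8 FPKM (SD, n = 3). It was followed by Gap43 at 49.2 ± 14.1 FPKM, Nefm at 38.2 ± 10, Nefl at 34.8 ± 10.8, Elavl3 at 19.6 ± 6.60, Stmn2 at 15.5 ± 5.49, Dcx at 12.7 ± 4.57, Elavl4 at 6.20 ± 1.63, Syt1 at 1.97 ± 0.573 and Snap25 at 1.56 ± 0.504 (SD, n = 3 each). The order was the same within each of the 3 Dnmt3b+/+ embryos, although across embryos only Tubb3, Elavl4 and the pair of Syt1 and Snap25 were apart from their neighbours in that order. The vesicle release genes Syt1 and Snap25 were thus the rarest messages of the set at this stage.

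**Figure D1:**
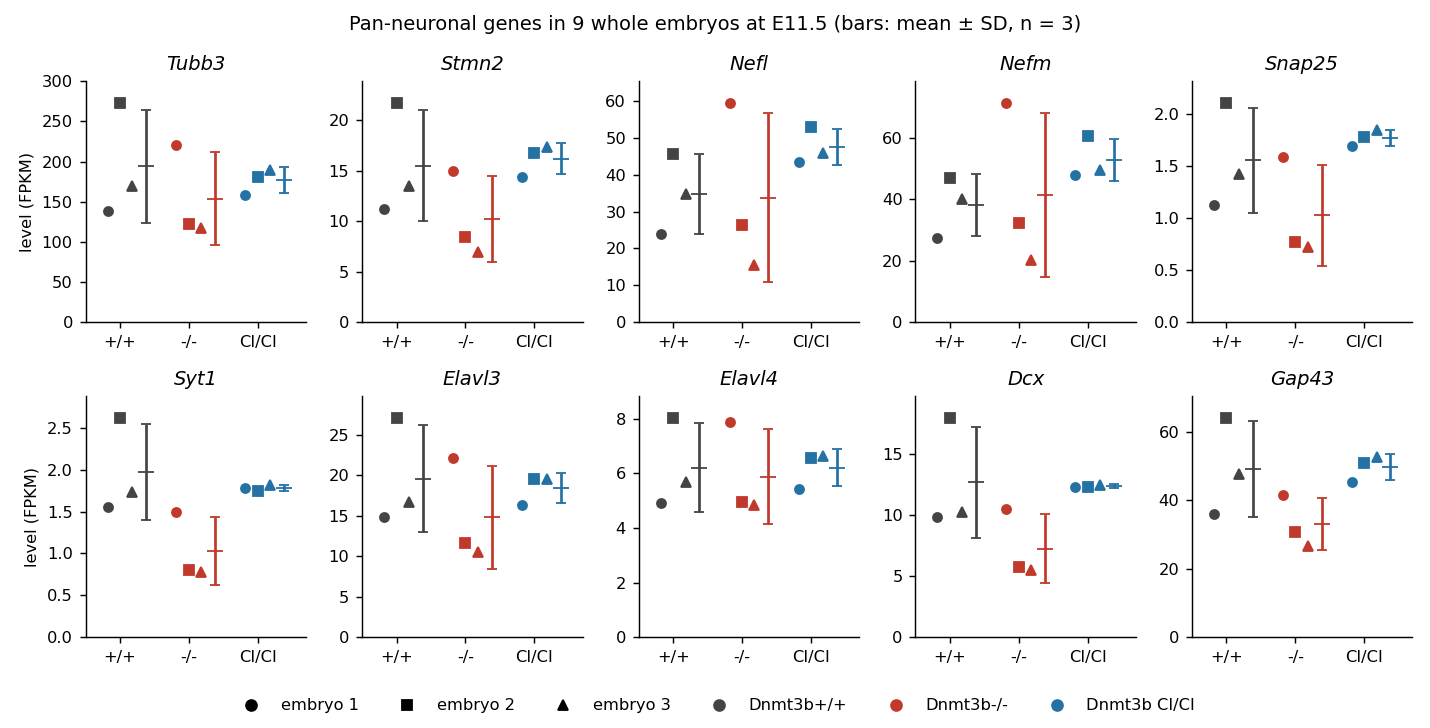
Level of each of the 10 pan-neuronal genes in FPKM (vertical axes, each from 0) in the 9 embryos, grouped by genotype, with the marker shape giving the embryo number and the bar giving mean ± SD (n = 3). Embryos 2 and 3 labelled Dnmt3b-/- lie low in most panels while embryo 1 lies among or above the others, except for Syt1, where it lies below both other genotypes. The Dnmt3b CI/CI embryos lie close together.

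Tubb3 encodes the neuronal class III beta-tubulin and lies at chr8:123411424-123422015 on the plus strand (GRCm38, GENCODE M21). It measured 138, 273 and 170 FPKM in Dnmt3b+/+ embryos 1, 2 and 3, 221, 123 and 117 FPKM in embryos labelled Dnmt3b-/-, against 159, 181 and 190 FPKM in Dnmt3b CI/CI. Embryos 2 and 3 labelled Dnmt3b-/- were the lowest of the 9, but embryo 1 was the next to highest. The difference from Dnmt3b+/+ was -0.34 (SE 0.29, adjusted p = 0.425), with a 95% interval from -1.0 to 0.33.

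Dcx, the X-linked gene of doublecortin, a microtubule-binding protein of migrating neurons (chrX:143855842-143933311, minus strand), measured 9.87, 18 and 10.3 FPKM in Dnmt3b+/+, 10.5, 5.75 and 5.50 FPKM in embryos labelled Dnmt3b-/-, against 12.3, 12.3 and 12.5 FPKM in Dnmt3b CI/CI. All 3 embryos labelled Dnmt3b-/- were below all 3 Dnmt3b CI/CI embryos, whereas embryo 1 was above 2 of the Dnmt3b+/+ embryos. The difference from Dnmt3b+/+ was -0.81 (SE 0.28, adjusted p = 0.0648) and that from Dnmt3b CI/CI was -0.82 (SE 0.28, adjusted p = 0.0575).

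Stmn2, which encodes a tubulin-sequestering protein of growing axons (chr3:8509360-8561606, plus strand), measured 11.2, 21.7 and 13.5 FPKM in Dnmt3b+/+, 15.0, 8.49 and 7.0 FPKM in embryos labelled Dnmt3b-/-, against 14.4, 16.8 and 17.3 FPKM in Dnmt3b CI/CI. Its difference in Dnmt3b-/- was -0.62 from Dnmt3b+/+ (SE 0.30, adjusted p = 0.157) and -0.74 from Dnmt3b CI/CI (SE 0.30, adjusted p = 0.0977). Gap43, the growth cone phosphoprotein (chr16:42248442-42340651, minus strand), measured 36.0, 64.1 and 47.7 FPKM in Dnmt3b+/+, 41.5, 30.7 and 26.7 FPKM in embryos labelled Dnmt3b-/-, against 45.4, 50.8 and 52.8 FPKM in Dnmt3b CI/CI. For Gap43 all 3 embryos labelled Dnmt3b-/- fell below the Dnmt3b CI/CI range, and embryo 1 was less far above embryos 2 and 3 than for any other member, at 1.44 times their mean. The Gap43 difference was -0.56 from Dnmt3b+/+ (SE 0.22, adjusted p = 0.0882) and -0.61 from Dnmt3b CI/CI (SE 0.22, adjusted p = 0.0650).

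Nefl and Nefm encode the light and medium neurofilament subunits, which co-polymerise in the axon, and they are neighbours. Nefl lies at chr14:68083863-68089095 on the plus strand, within the span of Nefm at chr14:68082590-68124846 on the minus strand, and 1108 exon bases of the annotation are shared by both, 32.8% of the exon length of Nefl and 19.2% of that of Nefm. Whether the libraries kept strand is not given in the sources used here, so reads in the shared bases cannot be told apart. Nefl measured 24.0, 45.7 and 34.7 FPKM in Dnmt3b+/+, 59.4, 26.4 and 15.5 FPKM in embryos labelled Dnmt3b-/-, against 43.5, 52.9 and 45.9 FPKM in Dnmt3b CI/CI. Nefm measured 27.3, 47.0 and 40.2 FPKM, 71.4, 32.5 and 20.3 FPKM, and 48.1, 60.6 and 49.6 FPKM in the same order. Embryo 1 labelled Dnmt3b-/- had the highest value of all 9 embryos for both neurofilament genes and embryo 3 the lowest, a range of 3.84-fold for Nefl and 3.51-fold for Nefm within 1 genotype. The differences from Dnmt3b+/+ were -0.21 for Nefl (SE 0.43, adjusted p = 0.738) and -0.04 for Nefm (SE 0.40, adjusted p = 0.946).

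Syt1 encodes synaptotagmin-1, the calcium sensor of fast vesicle release, and lies at chr10:108497650-109010982 on the minus strand. It measured 1.55, 2.62 and 1.73 FPKM in Dnmt3b+/+, 1.5, 0.804 and 0.784 FPKM in embryos labelled Dnmt3b-/-, against 1.78, 1.75 and 1.82 FPKM in Dnmt3b CI/CI. It was the only member for which all 3 embryos labelled Dnmt3b-/- were below all 3 Dnmt3b+/+ embryos, by a margin of 1.5 against 1.55 FPKM, and the groups did not overlap with Dnmt3b CI/CI either. Syt1 fell by 0.89 on the log2 scale relative to Dnmt3b+/+ (SE 0.25, adjusted p = 0.0336) and by 0.79 relative to Dnmt3b CI/CI (SE 0.25, adjusted p = 0.0474). Snap25 encodes a SNARE protein of the same release machinery (chr2:136713453-136782428, plus strand) and measured 1.13, 2.11 and 1.43 FPKM in Dnmt3b+/+, 1.59, 0.772 and 0.726 FPKM in embryos labelled Dnmt3b-/-, against 1.70, 1.78 and 1.85 FPKM in Dnmt3b CI/CI. Embryo 1 labelled Dnmt3b-/- was inside the Dnmt3b+/+ range for Snap25 but below the Dnmt3b CI/CI range, and the differences were -0.59 (SE 0.29, adjusted p = 0.165) and -0.81 (SE 0.29, adjusted p = 0.0682).

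The call of Syt1 against Dnmt3b+/+ rests on a small margin. It was kept when Dnmt3b+/+ embryo 1 or embryo 1 labelled Dnmt3b-/- was left out, and it was lost when any other of the 9 embryos was left out, with adjusted p from 0.0525 to 0.114, the Dnmt3b CI/CI embryos included, since they share the estimate of the spread. Against Dnmt3b CI/CI it was lost without Dnmt3b+/+ embryo 3, without embryos 2 or 3 labelled Dnmt3b-/- and without any Dnmt3b CI/CI embryo, with adjusted p from 0.0683 to 0.149. With all embryos, the call against Dnmt3b+/+ was also lost with no filter (adjusted p = 0.0713), with quantile normalization (0.0643) and with only the 2 groups compared (0.0868). That against Dnmt3b CI/CI was lost with a pseudocount of 1 FPKM (0.0554), no filter (0.0977), median-of-ratios scaling (0.0591), quantile normalization (0.0991) and no variance trend (0.0552). Both calls were also lost with the embryo number added to the model as a block.

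Elavl3 and Elavl4 encode the RNA-binding proteins HuC and HuD. Elavl3 (chr9:22015005-22052023, minus strand) measured 14.9, 27.1 and 16.7 FPKM in Dnmt3b+/+, 22.1, 11.7 and 10.5 FPKM in embryos labelled Dnmt3b-/-, against 16.3, 19.5 and 19.5 FPKM in Dnmt3b CI/CI. Elavl4 (chr4:110203722-110351909, minus strand) measured 4.90, 8.03 and 5.67 FPKM, 7.88, 4.94 and 4.83 FPKM, and 5.42, 6.57 and 6.63 FPKM in the same order. Elavl4 is the member whose genotype means lay closest, at 6.20, 5.88 and 6.21 FPKM. Its difference in Dnmt3b-/- was -0.08 from Dnmt3b+/+ (SE 0.22, adjusted p = 0.808), where that of Elavl3 was -0.43 (SE 0.30, adjusted p = 0.313).

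**Figure D2:**
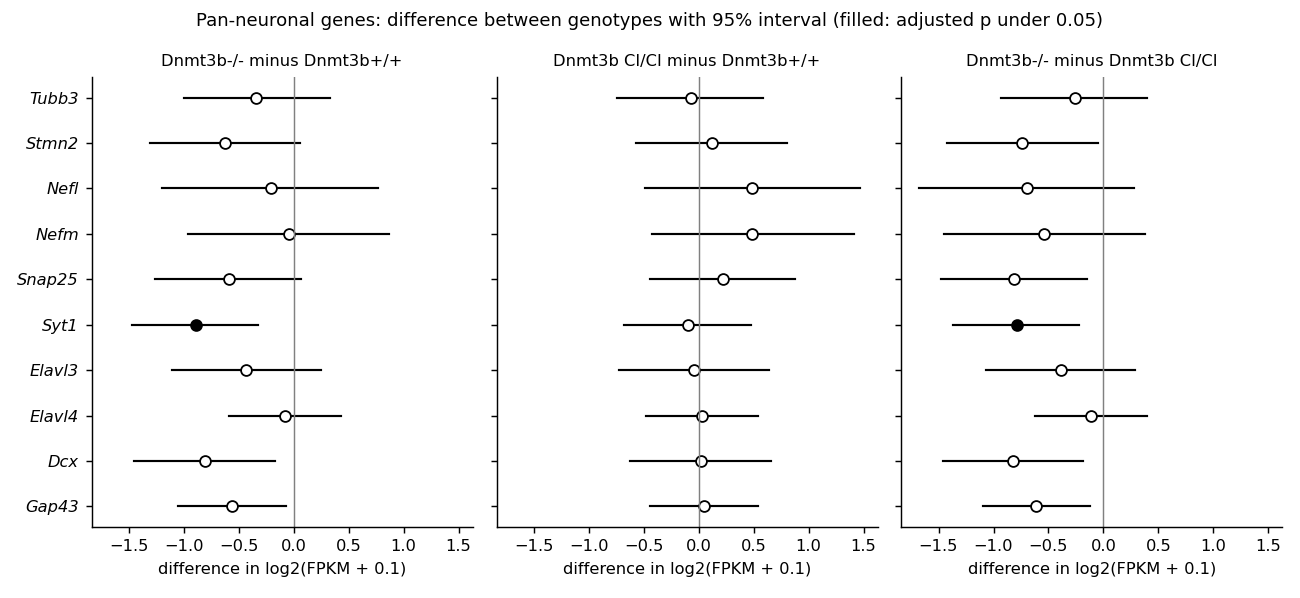
Difference between genotypes for each gene on the log2(FPKM + 0.1) scale (horizontal axes), with its 95% interval from limma, and with filled points where the adjusted p was under 0.05. In the left panel all 10 points are below 0 and only Syt1 is filled, in the middle panel they lie around 0, and in the right panel all are below 0 again with Syt1 filled.

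Taking the set as a whole, 1 of 10 genes was lower in embryos labelled Dnmt3b-/- than in Dnmt3b+/+ and none was higher, where 16.4% of all tested genes were lower and 9.41% higher. With a fold of at least 2 added, no member was lower, against 3.38% of all genes, and at an unadjusted p under 0.05 limma gave 3 (Syt1, Dcx and Gap43), against 25.4% of all genes. Groups did not overlap for 1 of 10 members, with Dnmt3b-/- below, against 23.8% of all genes. All 10 differences were below 0 with all embryos, except that under median-of-ratios scaling Nefm was at 0.02, and leaving out single embryos took Nefl, Nefm and Elavl4 to as high as 0.24, 0.37 and 0.12. Their median was -0.50 where that of all tested genes was -0.07. Over all genes this comparison had 3175 lower and 1826 higher, a split that became 2547 and 2566 with median-of-ratios scaling and 2044 and 2236 with quantile normalization.

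Between Dnmt3b-/- and Dnmt3b CI/CI, 1 of 10 genes was lower and none higher, against 18.2% and 9.70% of all genes, and none passed with a fold of at least 2, against 4.32%. At an unadjusted p under 0.05, 5 were lower (Stmn2, Snap25, Syt1, Dcx and Gap43), against 26.9% of all genes. Groups did not overlap for 4 of 10 (Snap25, Syt1, Dcx and Gap43), all with Dnmt3b-/- below, where the share over all genes was 29.5%. The median difference was -0.66, beside -0.08 for all genes. Here the split of all genes was 3525 lower and 1882 higher, and 2678 and 2921 with median-of-ratios scaling. By adjusted p the shares of members called were no larger than those of all genes in either comparison with all 9 embryos, and both comparisons use the same embryos labelled Dnmt3b-/-.

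Between Dnmt3b CI/CI and Dnmt3b+/+ no member passed in limma, none had an unadjusted p under 0.05, and the median difference was 0.04, beside 0.02 for all genes. Of all genes, 0.144% passed in either direction. The neurofilament genes had the largest differences, at 0.49 for Nefl (95% interval -0.49 to 1.47) and 0.49 for Nefm (-0.42 to 1.41), and Nefm was higher in all 3 Dnmt3b CI/CI embryos than in any Dnmt3b+/+ embryo, as 7.53% of all genes were. No member lay below the Dnmt3b+/+ range in all 3 Dnmt3b CI/CI embryos, as 5.65% of all genes did. The intervals of the other 8 genes lay between -0.74 and 0.88 on the log2 scale.

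Within Dnmt3b+/+ and within Dnmt3b-/- the spread between embryos was larger than most of these differences and was shared by the 10 genes. Dnmt3b+/+ embryo 2 was the highest of all 9 embryos for 8 members and exceeded embryo 1 by 1.64-fold (Elavl4) to 1.99-fold (Tubb3). Embryo 3 labelled Dnmt3b-/- was the lowest of all 9 for all 10 members, and embryo 2 was among the lowest 3 for all 10. Embryo 1 labelled Dnmt3b-/- stood above the mean of embryos 2 and 3 for every member, by 1.44-fold (Gap43) to 2.83-fold (Nefl). The 3 Dnmt3b CI/CI embryos lay within 1.02-fold (Dcx) to 1.26-fold (Nefm) of each other. Each gene followed the mean log2 level of the other 9 over the 9 embryos, with Pearson's r from 0.826 for Nefm to 0.987 for Stmn2, a description of 9 points in 3 groups.

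Without embryo 1 labelled Dnmt3b-/- the counts rose. Against Dnmt3b+/+, 6 of 10 members were then lower (Stmn2, Snap25, Syt1, Elavl3, Dcx and Gap43), 2 of them by at least 2-fold, where 23.4% of all genes were lower and 6.05% by at least 2-fold. Against Dnmt3b CI/CI, 8 of 10 were lower (all but Tubb3 and Elavl4), 6 of them by at least 2-fold, where 24.8% and 6.94% of all genes were. The medians moved to -0.75 and -1.04. They moved the other way against Dnmt3b+/+, to -0.26 without Dnmt3b+/+ embryo 2, -0.38 without embryo 2 and -0.31 without embryo 3 labelled Dnmt3b-/-, and against Dnmt3b CI/CI to -0.60 and -0.36 without those last 2 embryos. Leaving out embryo 2 or embryo 3 instead left no member that passed in limma against either group, and 1 at an unadjusted p under 0.05 in each case, where 8.21% and 8.69% of all genes were lower than in Dnmt3b+/+ and 11% and 10.1% lower than in Dnmt3b CI/CI. Nothing in the labels sets embryo 1 apart, and both sets of counts stand side by side.

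Levels of the members relative to each other are given as a description, with no test. With each embryo's mean over the 10 genes taken out, and the Dnmt3b+/+ mean at 0 on the log2 scale, Syt1 was at -0.52, -0.49 and -0.29 in embryos 1, 2 and 3 labelled Dnmt3b-/- and from -0.05 to 0.09 in Dnmt3b+/+. Dcx was at -0.41, -0.41 and -0.23 where Dnmt3b+/+ embryos ranged from -0.16 to 0.09. Elavl4 moved the other way, to 0.18, 0.38 and 0.58, from -0.07 to 0.08 in Dnmt3b+/+. In these 3 genes, picked after their values were seen, embryo 1 lay to the same side as embryos 2 and 3, although its total level did not. The same held for Stmn2, at -0.19, -0.13 and -0.17 where Dnmt3b+/+ ranged from -0.05 to 0.07. It also held for Snap25, at -0.12, -0.22 and -0.06 where Dnmt3b+/+ ranged from -0.01 to 0.01. The relative values of an embryo sum to 0, so low values of some members go with high values of others. The relative level of Syt1 was also below 0 in Dnmt3b CI/CI, at -0.11, -0.31 and -0.24, and so overlapped that of Dnmt3b-/-.

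**Figure D3:**
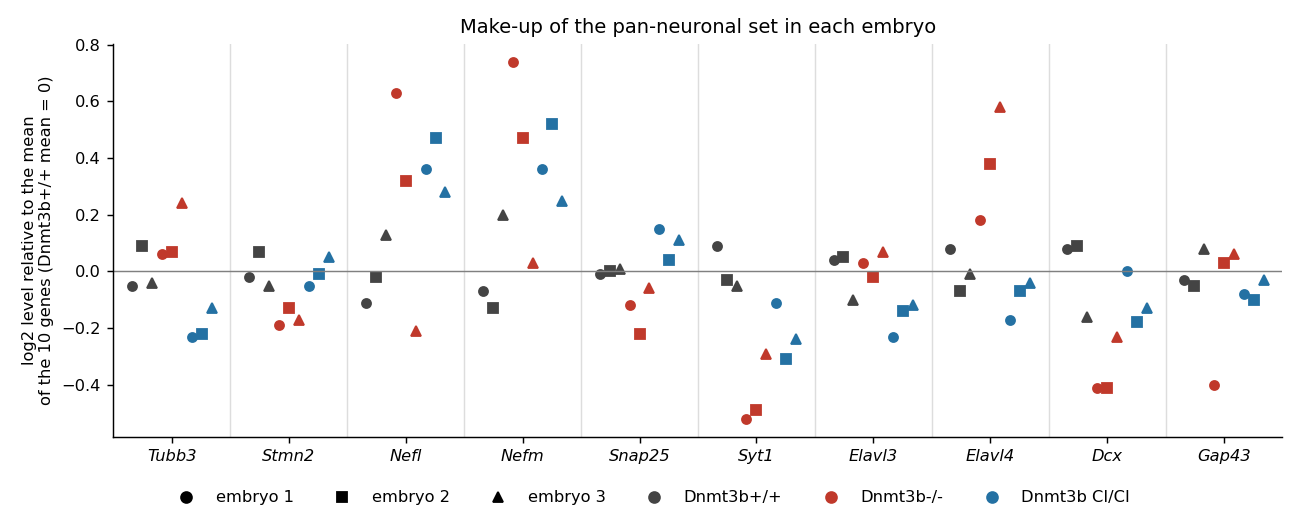
Log2 level of each gene relative to the mean of the 10 genes in the same embryo (vertical axis), with the Dnmt3b+/+ mean set to 0, for 9 embryos by genotype (colour) and embryo number (shape). The 3 embryos labelled Dnmt3b-/- are low for Syt1 and Dcx and high for Elavl4, and the neurofilament genes Nefl and Nefm are high in the 3 Dnmt3b CI/CI embryos and spread widely in those labelled Dnmt3b-/-.

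Ratios between members need no such reference. The ratio of Tubb3 to Dcx was 13.9, 15.2 and 16.6 in Dnmt3b+/+, 21, 21.3 and 21.3 in embryos labelled Dnmt3b-/-, against 13.0, 14.8 and 15.2 in Dnmt3b CI/CI. The ratio of Tubb3 to Syt1 was 88.8, 104 and 98.5, then 147, 153 and 149, then 89.3, 104 and 105 in the same order. For Elavl4 to Syt1 it was 3.16, 3.06 and 3.28, then 5.24, 6.14 and 6.16, then 3.04, 3.76 and 3.65, a mean of 5.85 ± 0.525 in Dnmt3b-/- against 3.17 ± 0.107 in Dnmt3b+/+ (SD, n = 3 each). In all 3 ratios the embryos labelled Dnmt3b-/- were apart from both other genotypes, while Dnmt3b CI/CI overlapped Dnmt3b+/+.

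These 3 ratios were picked after their values were seen. Of all 45 pairs of members, 21 had ratios that did not overlap between Dnmt3b-/- and Dnmt3b+/+, 18 between Dnmt3b-/- and Dnmt3b CI/CI, and 15 between Dnmt3b-/- and each of the others. Between Dnmt3b CI/CI and Dnmt3b+/+, 23 of 45 pairs did not overlap, no fewer than for Dnmt3b-/-. The share among pairs of other genes was not computed, pairs share genes and are not independent, and with 3 embryos against 3 an exact permutation test of 1 ratio cannot give a p below 0.1, so no ratio was tested.

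Syt1 was in 8 and Elavl4 in 7 of their 9 pairs apart between Dnmt3b-/- and Dnmt3b+/+, whereas Nefl was in 8, Snap25 in 7 and Nefm in 6 of their 9 pairs apart between Dnmt3b CI/CI and Dnmt3b+/+. The 9 pairs of a gene all hold that gene and are not separate observations, and no share for pairs of other genes stands beside these counts. The ratio of Nefl to Elavl3, for instance, was 1.61, 1.68 and 2.09 in Dnmt3b+/+ and 2.68, 2.71 and 2.36 in Dnmt3b CI/CI, and spread over 2.68, 2.26 and 1.47 in embryos labelled Dnmt3b-/-. The ratio of Nefm to Nefl was 1.14, 1.03 and 1.16 in Dnmt3b+/+, 1.2, 1.23 and 1.31 in embryos labelled Dnmt3b-/-, against 1.11, 1.15 and 1.08 in Dnmt3b CI/CI, so that Dnmt3b-/- lay above both others.

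**Figure D4:**
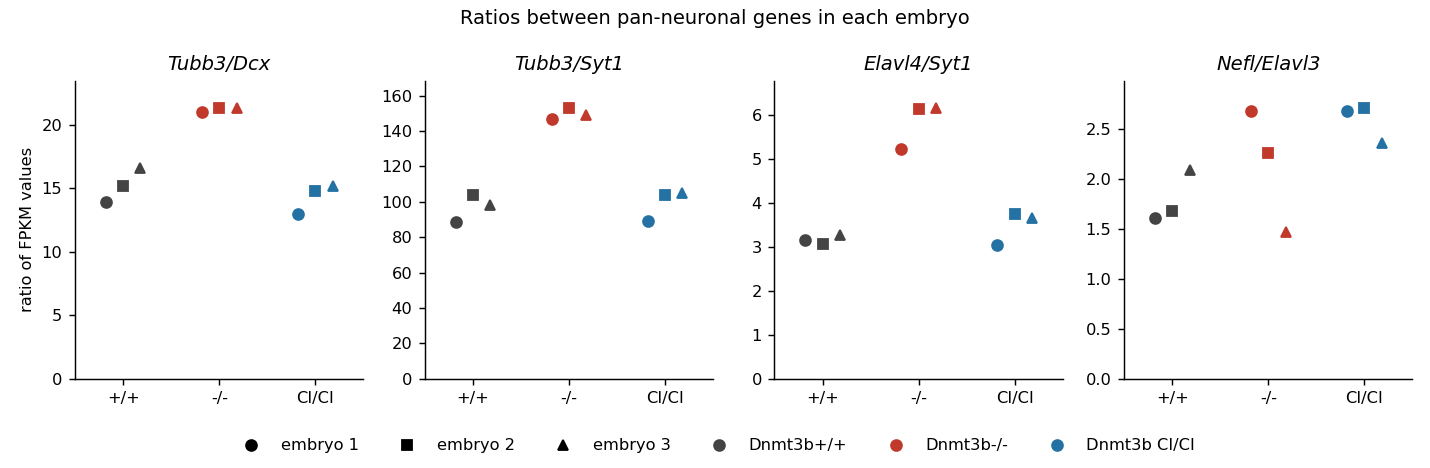
Ratio of FPKM values of 4 pairs of genes in each embryo (vertical axes, from 0), by genotype and embryo number. Tubb3 to Dcx, Tubb3 to Syt1 and Elavl4 to Syt1 are higher in all 3 embryos labelled Dnmt3b-/- than in the other 6, and Nefl to Elavl3 is higher in the 3 Dnmt3b CI/CI embryos than in Dnmt3b+/+.

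Dnmt3b methylates CpG dinucleotides, so the CpG content of the promoters is shown for the 5 members with an entry in the RefSeq table (GRCm38.p6, C57BL/6J reference sequence): Tubb3, Elavl3, Elavl4, Syt1 and Dcx. The other 5 are Stmn2, Nefl, Nefm, Snap25 and Gap43. The 250 bases before the annotated start are printed 5′ to 3′ on the strand of the gene with each CG in capitals so that their CpG content can be compared. The windows are chr8:123411303-123411552 for Tubb3 (plus strand) and, on the minus strand, chr9:22052024-22052273 for Elavl3, chr4:110351912-110352161 for Elavl4, chr10:109010976-109011225 for Syt1 and chrX:143933220-143933469 for Dcx, in each case the entry that starts farthest upstream. RefSeq and GENCODE place the starts differently, and the windows of Tubb3, Syt1 and Dcx reach into the gene positions given above.
Tubb3: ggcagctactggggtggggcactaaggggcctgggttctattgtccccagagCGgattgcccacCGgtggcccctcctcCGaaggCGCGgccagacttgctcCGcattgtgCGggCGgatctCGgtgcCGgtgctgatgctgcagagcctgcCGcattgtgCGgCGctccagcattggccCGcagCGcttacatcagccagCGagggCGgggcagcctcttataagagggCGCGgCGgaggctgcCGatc
Elavl3: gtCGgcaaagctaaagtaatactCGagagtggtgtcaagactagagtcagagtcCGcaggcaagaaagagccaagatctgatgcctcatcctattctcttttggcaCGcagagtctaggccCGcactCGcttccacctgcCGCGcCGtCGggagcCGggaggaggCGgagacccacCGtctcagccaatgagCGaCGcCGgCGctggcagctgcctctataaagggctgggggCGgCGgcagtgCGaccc
Elavl4: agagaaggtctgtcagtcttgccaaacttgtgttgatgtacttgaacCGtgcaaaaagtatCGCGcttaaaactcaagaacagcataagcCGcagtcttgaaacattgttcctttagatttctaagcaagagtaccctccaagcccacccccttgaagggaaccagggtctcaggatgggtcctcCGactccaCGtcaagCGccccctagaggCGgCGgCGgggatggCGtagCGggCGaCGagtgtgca
Syt1: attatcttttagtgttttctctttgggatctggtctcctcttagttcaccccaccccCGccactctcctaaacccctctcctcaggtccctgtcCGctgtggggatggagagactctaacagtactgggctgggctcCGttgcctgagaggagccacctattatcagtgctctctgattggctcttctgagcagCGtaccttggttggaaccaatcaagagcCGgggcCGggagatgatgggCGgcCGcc
Dcx: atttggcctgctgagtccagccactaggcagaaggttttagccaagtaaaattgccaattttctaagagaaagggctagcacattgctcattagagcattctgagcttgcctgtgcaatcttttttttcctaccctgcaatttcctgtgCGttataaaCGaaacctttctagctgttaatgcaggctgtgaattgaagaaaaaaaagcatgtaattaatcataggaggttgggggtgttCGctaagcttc

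The window of Tubb3 held 21 CpG, that of Elavl3 20, that of Elavl4 14, that of Syt1 8 and that of Dcx 3, where the median over 32851 windows of the same length was 6. A window with as many CpG as Tubb3 or more made up 16.3% of all windows, and 71% had at least the 3 of Dcx. The order depends on the entry, since Syt1, Dcx and Elavl4 have further entries downstream with 3 to 5 CpG each, those of Elavl4 holding 4, 5 and 3. No relation between CpG content and expression was read from 5 genes, and methylation of these windows was not analysed here.

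The windows were searched on both strands for 3 short motifs. CAGCTG, an E-box of the kind bound by basic helix-loop-helix factors, was found once in the window of Elavl3, and 13% of all windows hold it. GGGCGG, a GC box, which contains a CpG itself, occurred at 2 places for Tubb3 and 1 each for Elavl3 and Syt1, and 32.7% of all windows hold it. TATAAA was found once each for Elavl3 and Dcx, and 12.4% of all windows hold it.

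Other genes of the same programme were counted from lists made by role. Of 30 further genes of the neuronal cytoskeleton, axon and growth cone, 5 were lower in embryos labelled Dnmt3b-/- than in Dnmt3b+/+ and none higher, where 16.4% of all genes were lower and 9.41% higher, so that the count is near the background. Their median difference was -0.57, and -0.31 without Dnmt3b+/+ embryo 2. Those that fell were Ncam1, a neural adhesion molecule (16.9, 27.4 and 20.1 FPKM in Dnmt3b+/+ and 16.4, 9.16 and 8.22 FPKM in embryos labelled Dnmt3b-/-, difference -0.96, SE 0.26, adjusted p = 0.0271), Dclk1, a doublecortin-like kinase (-0.89, SE 0.23, adjusted p = 0.0229), and the transport or membrane genes Kif1a, Kif21b and Ank2 (-0.83, -0.81 and -0.57). The differences of Prph, the peripherin of sensory and autonomic neurons, and Mapt, the axonal tau gene, were -1.30 and -1.28 but did not pass (SE 0.58 and 0.45, adjusted p = 0.127 and 0.0679). At the other end of that list, Dpysl2 and Dpysl4 were at -0.26 and -0.08 (adjusted p = 0.164 and 0.836).

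Of 30 further presynaptic genes, 9 were lower and none higher, 4 of them by at least 2-fold, against 16.4% and 3.38% of all genes. Their median was -0.76, and -0.53 without Dnmt3b+/+ embryo 2. Among them were the active zone genes Bsn (-1.11, SE 0.32, adjusted p = 0.0365), Pclo (-0.88) and Rims1 (-0.97), the vesicle genes Syn2 (-1.03), Sv2b (-1.02), Vamp2 (-0.51) and Syt5 (-1.04), and Cplx2 (-0.65) of the fusion machinery. Some of these levels were low. Sv2b measured 0.334, 0.448 and 0.399 FPKM in Dnmt3b+/+ and 0.215, 0.0926 and 0.132 FPKM in embryos labelled Dnmt3b-/-, near the filter of 0.1 FPKM. Syn2, Pclo and Rims1 had means of 0.738, 0.595 and 0.555 FPKM over all embryos. Bsn measured 2.45, 4.87 and 2.69 FPKM in Dnmt3b+/+, 2.37, 1.11 and 1.07 FPKM in embryos labelled Dnmt3b-/-, against 2.74, 3.02 and 2.86 FPKM in Dnmt3b CI/CI, so that embryo 1 was just below the lowest Dnmt3b+/+ embryo. Doc2a and Napb were at 0.06 and -0.28 and did not pass (adjusted p = 0.596 and 0.349), although for Napb embryos 2 and 3 labelled Dnmt3b-/- were again the lowest of all embryos. Against Dnmt3b CI/CI, 14 of the 30 were lower and none higher, 8 of them by at least 2-fold, against 18.2% and 4.32% of all genes, and the median was -0.87. Sv2c, a vesicle protein, and Rab3c had the lowest differences of the list from Dnmt3b+/+ without passing (-1.27 and -1.22, adjusted p = 0.0989 and 0.0595), and passed against Dnmt3b CI/CI (-1.91 and -1.28, adjusted p = 0.0253 and 0.0477). Without embryo 1 labelled Dnmt3b-/-, the presynaptic counts were 26 of 30 in both comparisons and the axonal counts 23 and 18 of 30, where 23.4% and 24.8% of all genes were lower. Without embryo 2 labelled Dnmt3b-/- they were 1 of 30 presynaptic and 0 of 30 axonal genes in both comparisons, where 8.21% and 11% of all genes were lower, and without embryo 3 they were 2 and 1 presynaptic and again 0 axonal genes, against 8.69% and 10.1%. Against Dnmt3b+/+, leaving out Dnmt3b+/+ embryo 1, 2 or 3 gave 16, 4 and 4 presynaptic and 6, 0 and 2 axonal genes, where 14.4%, 11.9% and 9.14% of all genes were lower, and leaving out a Dnmt3b CI/CI embryo gave 5 and 3 in each case, against 13% to 13.3%. Against Dnmt3b CI/CI, leaving out Dnmt3b+/+ embryo 3 gave 8 presynaptic and 1 axonal genes (15% of all genes) and leaving out a Dnmt3b CI/CI embryo gave 2 to 3 and 0 (10.3% to 11.3%), while leaving out Dnmt3b+/+ embryo 1 or 2 gave 18 presynaptic genes each and 7 and 10 axonal genes (17.9% and 21%).

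Of 12 further RNA-binding genes of neurons, 2 were lower and none higher than in Dnmt3b+/+, near the 16.4% of all genes that were lower, with a median of -0.63 that was -0.28 without Dnmt3b+/+ embryo 2. These were Celf5 (-1.14, SE 0.28, adjusted p = 0.0215) and Khdrbs2 (-0.68, adjusted p = 0.0455). Rbfox1 and Rbfox3, splicing regulators of maturing neurons, had differences of -1.11 and -0.87 that did not pass (adjusted p = 0.134 and 0.138), as had Celf4 at -0.75 (adjusted p = 0.131). At the other end were Srrm4 at -0.26 and Elavl2, the close relative of Elavl3 and Elavl4, at -0.21 (adjusted p = 0.414 and 0.488).

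Of 23 transcription factors and regulators of neuronal differentiation, 3 were lower and none higher, a share no larger than the 16.4% of all genes that were lower, with a median of -0.22 that was -0.06 without Dnmt3b+/+ embryo 2. Myt1l, a repressor of non-neuronal genes, measured 1.12, 2.53 and 1.33 FPKM in Dnmt3b+/+, 0.934, 0.386 and 0.392 FPKM in embryos labelled Dnmt3b-/-, against 1.72, 1.49 and 1.65 FPKM in Dnmt3b CI/CI. All 3 embryos labelled Dnmt3b-/- were below all others, and Myt1l fell by 1.40 (SE 0.35, adjusted p = 0.0210). The proneural factor Neurog2 fell by 0.95 (SE 0.26, adjusted p = 0.0314), and its values of 6.67, 4.57 and 10.5 FPKM in Dnmt3b CI/CI were also below the 16.7, 19.5 and 15.2 FPKM of Dnmt3b+/+ without passing (-1.30, adjusted p = 0.292). Bhlhe22 fell by 1.09 (SE 0.30, adjusted p = 0.0307), while Scrt1 was at -1.07 (adjusted p = 0.111) and Neurog1 and Nhlh2 were at 0.29 and 0.40 (adjusted p = 0.350 and 0.409).

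Genes listed by kind of neuron differed in their counts, although RNA from whole embryos does not show whether each came from those neurons. For all of them the share of all genes lower was 16.4% and that higher 9.41%. Of 16 sensory and sympathetic genes 5 were lower and none higher, with a median of -0.62 that was -0.31 without embryo 3 labelled Dnmt3b-/-. Among those that fell were Ntrk3, Runx1, Runx3 and Avil, at -0.96, -0.77, -1.43 and -1.07 (adjusted p = 0.0304, 0.00890, 0.0280 and 0.0282). Unlike the members, Runx1 was lowest among Dnmt3b+/+ in embryo 2, with 1.02, 0.655 and 0.895 FPKM in embryos 1, 2 and 3. In embryos labelled Dnmt3b-/- it measured 0.439, 0.481 and 0.438 FPKM. Tlx3, Ntrk2 and Pou4f1 were at -0.98, -0.66 and -0.58 and the sympathetic factors Gata3 and Hand2 at 0.13 and 0.70, without passing (adjusted p from 0.0821 to 0.742). Of 16 genes of other central neurons, 2 were lower, the GABA-synthesis gene Gad2 (-0.87, SE 0.19, adjusted p = 0.0130) and Reln (-0.81), a share below that of all genes, with a median of -0.45 that was -0.22 without Dnmt3b+/+ embryo 2. The transmitter transporter genes Slc17a6 and Slc32a1 were at -0.87 and -0.84, Tbr1 at -0.87, Barhl1 at -0.13 and Lhx5 at 0.07 (adjusted p from 0.0584 to 0.922). Tbr1 measured 3.09, 2.52 and 2.35 FPKM in Dnmt3b+/+ and 1.18, 1.18 and 1.96 FPKM in embryos labelled Dnmt3b-/-. These groups did not overlap, as for 23.8% of all genes with Dnmt3b-/- below. In Dnmt3b CI/CI Tbr1 measured 1.66, 0.0126 and 1.77 FPKM, and that spread enters its SE of 0.93. Lhx2 was also lowest in Dnmt3b CI/CI embryo 2, at 2.81 FPKM beside 15.7, 18.4 and 16.6 FPKM in Dnmt3b+/+. Of 10 motor neuron genes, no change passed in limma in either direction and 0 had an unadjusted p under 0.05, with a median of -0.17 that was 0.48 without embryo 3 labelled Dnmt3b-/-, and Isl1 and Isl2 were at -0.21 and -0.18, Aldh1a2 at -0.41 and Slc18a3 at -0.17 (adjusted p from 0.401 to 0.859). Without embryo 1 labelled Dnmt3b-/-, the genes lower than in Dnmt3b+/+ were 9 of the 16 sensory and sympathetic, 6 of the 16 central and 1 of the 10 motor neuron genes, and 10 of the 23 regulators and 7 of the 12 RNA-binding genes, against 23.4% of all genes. Without embryo 2 they were 2 sensory and sympathetic genes and 0 of the central, motor neuron, regulator and RNA-binding genes, against 8.21% of all genes. Without embryo 3 they were 2 sensory and sympathetic, 1 central and 0 of the other 3 lists, and the same counts were found without Dnmt3b+/+ embryo 2, against 8.69% and 11.9% of all genes. Without Dnmt3b+/+ embryo 3 they were 2 sensory and sympathetic, 2 central, 1 RNA-binding and 1 regulator gene, against 9.14%.

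**Figure D5:**
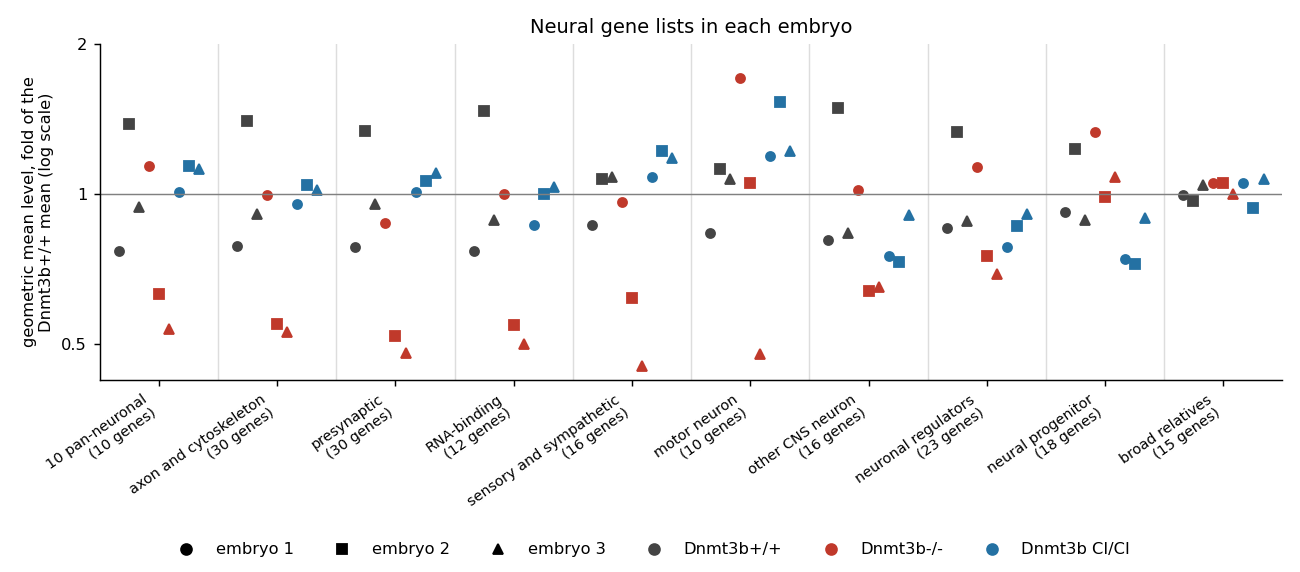
Geometric mean level of the genes of each neural list in each embryo, as a fold of the Dnmt3b+/+ mean (vertical axis, log scale), by genotype (colour) and embryo number (shape). Embryos 2 and 3 labelled Dnmt3b-/- lie lowest for the axonal, presynaptic, RNA-binding and central neuron lists, at 0.480 to 0.649 of the Dnmt3b+/+ mean, and all embryos lie near 1 for the broad relatives.

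Of 18 neural progenitor genes, 2 were higher and 1 lower in embryos labelled Dnmt3b-/- than in Dnmt3b+/+, where 9.41% of all genes were higher and 16.4% lower. Their median was 0.23, and ran from 0.08 to 0.35 with single embryos left out, while the counts ran from 1 to 4 higher (4 without Dnmt3b+/+ embryo 2) and 0 to 2 lower (2 without embryo 1 labelled Dnmt3b-/-). Prom1 measured 4.31, 3.79 and 3.71 FPKM in Dnmt3b+/+ and 5.08, 5.69 and 6.73 FPKM in embryos labelled Dnmt3b-/- and rose by 0.55 (SE 0.11, adjusted p = 0.0104), Nes rose by 0.51 (adjusted p = 0.0385), and the glutamate transporter gene Slc1a3 fell by 0.76 (SE 0.18, adjusted p = 0.0191). Fabp7, Lfng and Dll3 were at -0.31, -0.15 and 0.55 and did not pass (adjusted p from 0.180 to 0.533). Against Dnmt3b CI/CI 8 were higher and 1 lower, against 9.70% and 18.2% of all genes, with a median of 0.59 (5 to 9 higher and a median of 0.38 to 0.70 with single embryos left out, 5 without embryo 3 labelled Dnmt3b-/- or Dnmt3b CI/CI embryo 1). Dnmt3b CI/CI itself had a median of -0.24 against Dnmt3b+/+ and none that passed, where 0.144% of all genes did. Its 3 embryos lay below all Dnmt3b+/+ embryos for 7 of the 18 genes, against 5.65% of all genes, and above them for 0. At an unadjusted p under 0.05 in limma 5 were lower, as were 495 of the 19397 genes. A gene higher than in Dnmt3b CI/CI was therefore not always higher than in Dnmt3b+/+.

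Broadly expressed relatives of the 10 genes were set beside them, although RNA from whole embryos does not separate their expression in neurons from that in other cells. Of 15 of them, 3 were higher in embryos labelled Dnmt3b-/- than in Dnmt3b+/+, against 9.41% of all genes, the tubulin genes Tubb4b (0.57, SE 0.11, adjusted p = 0.00824) and Tuba1b (0.38, SE 0.09, adjusted p = 0.0210) and Marcksl1 (0.29, SE 0.08, adjusted p = 0.0345). Tubb6 was lower (-0.49, SE 0.09, adjusted p = 0.00845). The other 11 did not pass. Tubb5 was at 0.13, Stmn1 at -0.01, Elavl1, which encodes the ubiquitous HuR, at 0.19, Snap23 at 0.22, Snap29 at -0.17, Esyt1 at -0.35, Esyt2 at -0.09, Map4 at -0.33, Marcks at -0.11, Vim at -0.02 and Tuba1c at 0.47 (adjusted p from 0.0670 to 0.969). Their geometric mean stayed between 0.938 and 1.07 of the Dnmt3b+/+ mean in all 9 embryos, where that of the 10 pan-neuronal genes ranged from 0.535 to 1.38. None of the genes of any list named here passed between Dnmt3b CI/CI and Dnmt3b+/+.

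The genes most like the set in pattern were sought among 12786 others with a mean of at least 1 FPKM, by Pearson's r with the mean log2 level of the 10 genes over the 9 embryos. The 10 closest were Gdap1l1 and Rab6b (r = 0.995), Gm21984, Stmn3 and Clstn1 (0.994), Ina (0.993), Syp, Kif5a and Tspan17 (0.991) and Snap91 (0.989). Ina, which encodes the neurofilament protein alpha-internexin, measured 35, 85.8 and 46.5 FPKM in Dnmt3b+/+, 66.5, 30.2 and 21.8 FPKM in embryos labelled Dnmt3b-/-, against 54.6, 70.6 and 61.5 FPKM in Dnmt3b CI/CI. None of the 10 passed in any comparison, and their differences from Dnmt3b+/+ in Dnmt3b-/- ran from -0.66 to -0.28.

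Other tissues of the embryo differed between the same libraries. Dnmt3b+/+ embryo 2, the highest for most members, had the lowest summed level of 10 hepatocyte genes, 35.9 FPKM, of which 35.5 FPKM was Ttr, beside 276 and 153 FPKM in the other Dnmt3b+/+ embryos, 56.2 to 114 FPKM in those labelled Dnmt3b-/- and 173 to 202 FPKM in Dnmt3b CI/CI. The other 9 were near 0 in that embryo, with Alb at 0.103 FPKM and Afp at 0.119 FPKM beside 85.7 and 93.3 FPKM in Dnmt3b+/+ embryo 1. The sum of 10 cardiac genes was 5.6, 131 and 32 FPKM in Dnmt3b+/+ embryos 1, 2 and 3, 29.1, 143 and 84 FPKM in those labelled Dnmt3b-/- and 103, 125 and 8.32 FPKM in Dnmt3b CI/CI. The geometric mean of 10 erythroid genes was 0.956, 2.53 and 1.51 times the Dnmt3b+/+ mean in embryos 1, 2 and 3 labelled Dnmt3b-/-, so that embryo 1 was the lowest of the 3 for both lists. Of the erythroid genes 2 were higher than in Dnmt3b+/+, the embryonic globin genes Hbb-bh1 (3.01, SE 0.48, adjusted p = 0.00418) and Hba-x (1.79, SE 0.42, adjusted p = 0.0180). In embryos labelled Dnmt3b-/- 9 of 9 cartilage genes, 7 of 10 skeletal muscle genes and 7 of 10 mesenchyme genes were lower than in Dnmt3b+/+, 1 mesenchyme gene was higher (Twist1, 0.59, adjusted p = 0.00271), 8 of 10 immediate early genes were higher, where 16.4% of all genes were lower and 9.41% higher. With single embryos left out, the lower counts ran from 6 to 9 for cartilage and from 2 to 8 for skeletal muscle genes, with 2 without Dnmt3b+/+ embryo 3, 4 without Dnmt3b+/+ embryo 2, and 2 and 3 without embryos 2 and 3 labelled Dnmt3b-/-, and were 7 for mesenchyme genes each time, while the share of all genes lower ran from 8.21% to 23.4%. Of 8 genes of Schwann cell precursors and neural crest 2 were lower with all embryos, among them Cdh19 at -0.86. In that fit Foxd3, Sox10 and Erbb3 at -0.91, -0.85 and -0.61, Fabp7 at -0.31 and Mbp at -0.02 did not pass. Without embryo 1 labelled Dnmt3b-/- 6 of the 8 were lower, where 23.4% of all genes were. The part of tissue make-up in the levels of the neuronal genes was not tested.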

How the data were processed

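RNA-seq was made from 9 whole embryos, 1 library each, 3 per genotype, with groups taken from the sample labels. The authors extracted total RNA with trizol, sequenced it on a NovaSeq instrument, trimmed the reads, aligned them to mm10 with STAR and quantified them in SeqMonk, and they deposited the result as FPKM values per gene. The annotation release, the use of strand and whether reads or pairs were counted are not given in the sources used here. The table had 34245 rows, of which 1 named no gene and was left out. The bisulfite and cell line samples were not analysed here.

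One model of 3 genotypes was fitted with limma (version 3.58.1, under R 4.3.3) to log2(FPKM + 0.1) over the 19397 genes that reached 0.1 FPKM in at least 3 embryos, using a mean-variance trend and Benjamini-Hochberg adjustment. The labels name separate embryos, so the spread is between animals. The alternatives were another pseudocount, no filter, 2 other scalings, only the 2 groups compared, no trend, a replicate block and leaving out each embryo. Library totals were worked back from the floor, taken as 0.9 of a read, that a gene without reads carries, and positions came from GENCODE M21 and promoter windows from RefSeq. The members and gene lists were chosen with earlier results of these data known. Of each neural list, the 4 lowest and 2 highest differences in Dnmt3b-/- from Dnmt3b+/+ among genes with a mean of at least 1 FPKM are named, with all 15 broad relatives and the 10 genes most alike in pattern. Other list genes are named because they passed and were chosen after their values were seen. Some genes that the rule names are not reported here.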

Additional observations from a re-analysis of the deposited data

How the results depend on the processing

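The number of members lower in Dnmt3b-/- than in Dnmt3b+/+, 1 as reported, was 0 with no filter, with only the 2 groups compared in the fit and with the replicate block, and ran from 0 to 6 when single embryos were left out, with 0 to 2 by at least 2-fold, while the shares of all genes ran from 8.21% to 23.4% and from 2.2% to 6.05%. Against Dnmt3b CI/CI, 1 as reported became 0 with a pseudocount of 1 FPKM, no filter, median-of-ratios scaling, no variance trend or the replicate block and 3 with only the 2 groups, and ran from 0 to 8 when single embryos were left out, with 0 to 6 by at least 2-fold, and shares of all genes from 10.1% to 24.8% and from 2.9% to 6.94%. With quantile normalization the 1 member called was Gap43 and not Syt1 in both comparisons. The high ends of these ranges came without embryo 1 labelled Dnmt3b-/-. The cause was not tested.

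Values changed sign with median-of-ratios scaling for Nefm, Dnmt3b-/- against Dnmt3b+/+ (0.02), and Dcx, Dnmt3b CI/CI against Dnmt3b+/+ (0.00). With single embryos left out, differences of Dnmt3b-/- from Dnmt3b+/+ ran from -0.73 to 0.24 for Nefl, from -0.53 to 0.37 for Nefm and from -0.31 to 0.12 for Elavl4, and that of Elavl4 from Dnmt3b CI/CI from -0.33 to 0.01. Those of Dnmt3b CI/CI from Dnmt3b+/+ ran from -0.29 to 0.20 for Tubb3, -0.09 to 0.39 for Stmn2, -0.25 to 0.12 for Syt1, -0.21 to 0.22 for Elavl3, -0.13 to 0.22 for Elavl4, -0.14 to 0.29 for Dcx and -0.16 to 0.26 for Gap43.

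Embryos of the same replicate number in different genotypes did not deviate together, with a mean r of -0.0866 over 9 pairs beside 0.0478 over 18 pairs with different numbers, so the numbers were not taken as pairs. With the replicate block, 1954 genes were lower and 1075 higher in Dnmt3b-/- than in Dnmt3b+/+, beside 3175 and 1826 without it. The lowest value of a member rested on 200 reads, a counting error of 7.07% if each read is independent.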
